A study of Mus musculus with 29 samples.

Results

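Neutrophils taken from the brain were compared with neutrophils taken from the blood of mice 2 days after stroke. The members are single cells with the authors' parent code Gran in 4 brain libraries (350 cells) and the parent code Neu in 4 blood libraries (8813 cells), together 9163 of the 33160 cells in these 8 libraries and of 106977 cells in all 29 libraries of the series. Transcripts were counted by Drop-seq, in which each cell shares a droplet with a bead that carries a barcode. All mice of both groups were male C57BL/6J and had their middle cerebral artery closed for a time and then reopened. The deposited cell tables record 8 weeks for the 4 brain libraries and 9 (replicate 1) or 10 weeks for the blood libraries. Each age was read from 1 neutrophil per library, and whether all cells of a library carry it was not checked. The sample labels give 8 to 10 weeks for all of them. Each brain library pooled 4 to 5 hemispheres, and each blood library pooled the blood of 2 mice. Brain tissue was digested with papain in the presence of Brilliant Blue G, actinomycin D and AP-5, cleared of myelin on Percoll and sorted for CD45high cells, microglia and endothelial cells. Blood was drawn into heparin, kept with Brilliant Blue G and actinomycin D, freed of red cells by lysis and depleted of Ter-119+ cells. Tissue of origin, digestion, sorting and the use of AP-5 therefore cannot be told apart in any difference below. At stroke day 2, age cannot be told apart from these either. Nothing in the labels ties a brain library to a blood library, and p-values measure the spread between these pooled libraries.

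Neutrophils are short-lived granulocytes that leave the bone marrow with granules already filled, circulate in blood and enter injured tissue within hours. In tissue they are known to release chemokines and cytokines, to form prostaglandins, to phagocytose and to respond to low oxygen, and many of these genes are switched on through NF-kB, a transcription factor held inactive by inhibitor proteins. The levels of the receptors CXCR2 and CXCR4 are classical marks of how far a neutrophil has come on this route.

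The cell codes were checked against marker genes first. All 12 neutrophil markers were detected in both groups, and their summed level was 122191 to 217644 CPM (counts as a share of the library total, on a common scale) in the brain libraries and 177922 to 273280 CPM in the blood libraries. Monocyte or macrophage markers summed to 2183 to 6221 CPM in brain, with 15 of 15 detected, and to 3624 to 10760 CPM in blood, where Ccr2, Ms4a7, Fn1, C1qa and Arg1 were at 0. Of these, Lyz2, which neutrophils hold too, was at 1300 to 5385 CPM in brain and 3134 to 10022 CPM in blood, and the other 14 markers summed to 836 to 2261 CPM in brain and 490 to 737 CPM in blood, higher in all brain libraries. The part of macrophage RNA in the differences below was not tested. Microglial markers summed to 130 to 631 CPM in brain and 25 to 47.5 CPM in blood over the 6 markers in both tables, with Siglech and Gpr34 at 0 in both. Dendritic cell markers summed to 54.3 to 418 CPM in brain and 0 to 4.17 CPM in blood, with Flt3 and Zbtb46 at 0 in both. The brain libraries held 53, 75, 74 and 148 neutrophils with 19110, 21662, 55021 and 92316 summed counts, and the blood libraries 3968, 1312, 565 and 2968 neutrophils with 2949522, 514163, 239813 and 2212923 counts. Brain replicates 1 and 2 stood apart as the shallowest, at a median of 326 and 273 counts per neutrophil, against 736 and 559 in replicates 3 and 4 and 352 to 658 in blood. Pairs of the 8 libraries shared 0 to 4 cell barcodes, and at most 1 of these among neutrophils. Scrublet marked 0% to 0.127% of the cells of a library as doublets, which is too few for the caller to have worked, and no cell was left out as a doublet.

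Of 15730 genes present in the tables of both tissues, 1976 passed the filter on low counts (60.2 CPM in a library of median size, in at least 4 libraries), and 181 were called at an adjusted p under 0.05. The higher genes in brain numbered 130 (6.58% of genes tested) and the lower genes 51 (2.58%). Over the tested genes, log2 fold changes had a median of -0.09. In 167 genes (8.45%) every brain library lay above every blood library, and in 211 (10.7%) every brain library lay below. Through brain alone 116 genes passed the filter and through blood alone 713. Here, all 4 libraries of that tissue reached the CPM level, and not all 4 of the other did. Such a gene may have missed the level in a single shallow library and need not differ between tissues. The counts and medians of the gene lists below include such genes. They are descriptions to be read against the shares over all genes. DESeq2 on the same genes called 192 higher and 137 lower. Without the filter the median over 13174 genes was -0.96, the log2 fold changes of 80 named genes were lower by 0.58 to 0.87 than with it (median change -0.67), and 11 of 59 called named genes lost their call under this common shift. With 1 library left out, 98 to 150 genes were called higher and 21 to 66 lower, and without brain replicate 1, brain replicate 2 or any 1 blood library the lower genes numbered 21 to 33. With brain replicates 1 and 2 both left out, 107 were higher and 23 lower. Below, values of a gene are CPM of the summed neutrophils, scaled by TMM (a library scaling that assumes most genes do not differ) and given for replicates 1 to 4 in that order.

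Several chemokine and inflammatory cytokine genes were higher in brain neutrophils. Of 39 listed cytokines and chemokines, 29 were in both tables and 11 were tested, of which 7 were higher in brain (Cxcl2, Tnf, Ccl3, Ccl4, Il1b, Il1rn and Csf1), 1 was lower (Tnfsf14) and the median log2 fold change was 1.61, beside -0.09 over all genes tested. Of the 11, 4 passed the filter through brain alone, and 2 were lower at an unadjusted p under 0.05. The abundant chemokine Ccl6 was not called, at 1439, 1170, 3039 and 4249 CPM in brain and 4559, 3791, 3619 and 5852 CPM in blood (-0.82 ± 0.41, adjusted p 0.227). Cxcl2, a chemokine that attracts neutrophils through CXCR2, stood at 10957, 13199, 10483 and 15692 CPM in brain and 256, 631, 243 and 93.9 CPM in blood. Its log2 fold change was 5.37 ± 0.56 (SE, n = 4 and 4, adjusted p 4.78e-06). All brain libraries were of similar height and far above every blood library, of which replicate 2 was the highest. Tnf, the cytokine tumour necrosis factor, stood at 325, 877, 616 and 410 CPM in brain and 1.48, 0, 0 and 10.5 CPM in blood (log2 fold change 6.88 ± 0.58, adjusted p 7.11e-07). Its blood counts came from replicates 1 and 4 alone.

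Ccl3 and Ccl4, chemokines that attract monocytes and other leukocytes, were both highest in brain replicates 1 and 2. Ccl3 stood at 650, 1002, 250 and 205 CPM in brain and 0.738, 6.96, 3.99 and 3.52 CPM in blood (log2 fold change 7.29 ± 0.66, adjusted p 1.54e-06). Ccl4 stood at 1579, 1420, 423 and 760 CPM in brain and 30.6, 13.9, 0 and 5.53 CPM in blood (5.95 ± 0.59, adjusted p 3.36e-06). In neither gene did a brain library overlap with blood. Microglia of the same brain libraries held Ccl3 at 2.97 times and Ccl4 at 2.18 times the level of the brain neutrophils, and the part of microglial RNA in these values was not tested. Il1b, which encodes the cytokine interleukin-1 beta, was already abundant in blood, at 5325, 6514, 5831 and 3451 CPM, and stood at 9610, 9273, 20024 and 22125 CPM in brain (1.53 ± 0.41, adjusted p 0.0266). Brain replicates 3 and 4 were the highest of the 8, and the groups did not overlap. The call of Il1b was lost without brain replicate 3, brain replicate 4 or blood replicate 4 (adjusted p up to 0.144).

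The same list held an antagonist and a growth factor. Il1rn, which encodes the interleukin-1 receptor antagonist, stood at 604, 794, 327 and 398 CPM in brain and 161, 134, 143 and 198 CPM in blood (log2 fold change 1.61 ± 0.31, adjusted p 0.00255). The call of Il1rn was lost in cells with at least 500 counts, which left only brain replicates 3 and 4 with 20 cells or more (0.82, adjusted p 0.383), with blood thinned to brain depth (1.53, adjusted p 0.054) and without brain replicates 1 and 2 (1.14, adjusted p 0.0525). Csf1, the growth factor of macrophages, rose by a log2 fold change of 2.77 ± 0.53 (adjusted p 0.00255). Tnfsf14, the cytokine LIGHT, was the lower member, at 232, 83.5, 115 and 145 CPM in brain and 399, 318, 490 and 342 CPM in blood (-1.47 ± 0.34, adjusted p 0.0119). Every brain library lay below every blood library. Some chemokines are listed in the brain table only and could not be compared: Cxcl3 stood at 1161, 794, 731 and 1098 CPM in brain neutrophils (173 counts), and Cxcl1 at 325, 209, 96.2 and 96.6 CPM (25 counts). Vegfa did not pass the filter, at 139, 41.8, 38.5 and 12.1 CPM in brain and 5.53, 15.6, 19.9 and 10.5 CPM in blood, where the groups overlapped.

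**Figure D1:**
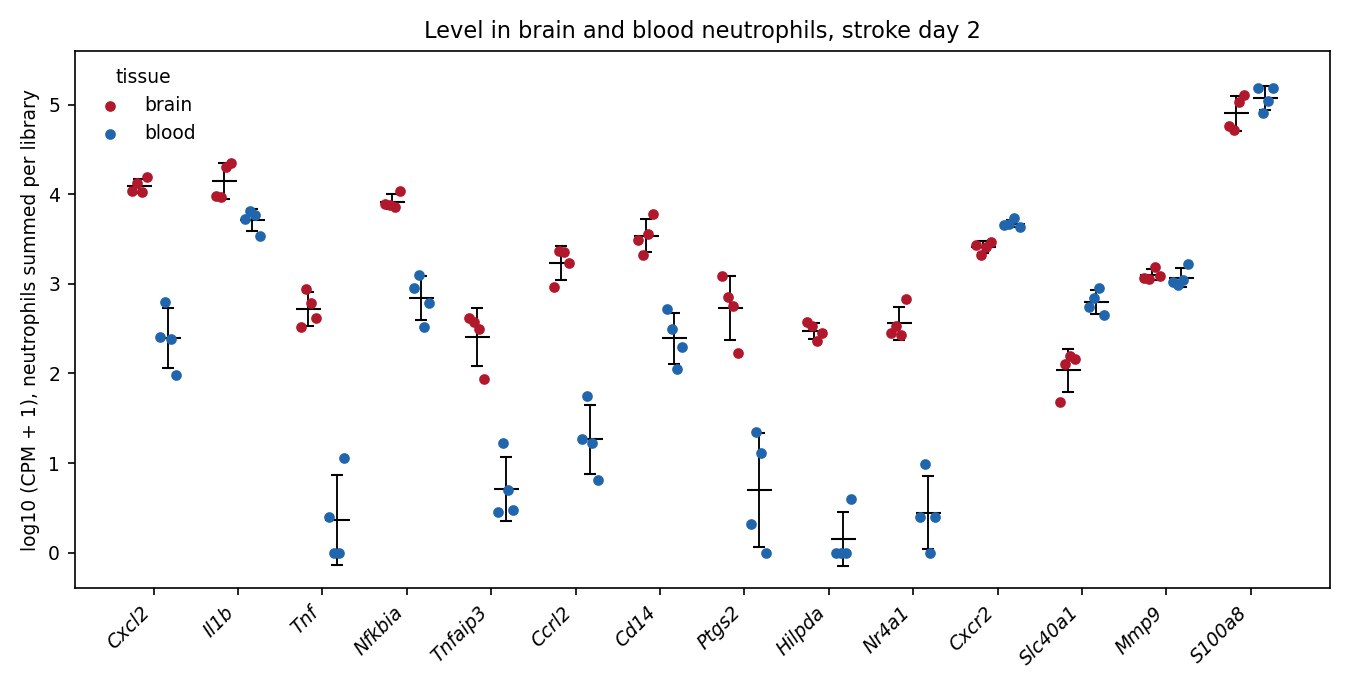
Level of 14 genes in neutrophils of 4 brain (red) and 4 blood (blue) libraries at stroke day 2. The y axis is the log10 of CPM + 1 of the neutrophils summed per library, points are libraries, and bars give the mean and SD of the plotted values. The brain and blood points of Cxcl2, Tnf, Nfkbia, Tnfaip3, Ccrl2, Cd14, Ptgs2, Hilpda and Nr4a1 are far apart, while those of Mmp9 and S100a8 overlap.

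Receptors for chemoattractants differed gene by gene. Of 9 tested members of the list, 3 were higher (Ccrl2, Ptafr and Cxcr4), and the median was 0.86. Ccrl2, an atypical receptor that presents chemerin, stood at 929, 2339, 2270 and 1690 CPM in brain and 17.3, 55.6, 15.9 and 5.53 CPM in blood (log2 fold change 6.38 ± 0.59, adjusted p 1.88e-06). Ptafr, the receptor of platelet-activating factor, stood at 371, 459, 346 and 314 CPM in brain and 135, 120, 116 and 131 CPM in blood (1.51 ± 0.27, adjusted p 0.00122). Both were without overlap. The call of Ptafr was lost in cells with at least 500 counts, with 2 brain libraries left (1.02, adjusted p 0.103). Cxcr4, which binds CXCL12 and holds neutrophils in the marrow, stood at 279, 585, 38.5 and 96.6 CPM in brain and 38, 80, 31.9 and 19.6 CPM in blood (2.23 ± 0.68, adjusted p 0.0491). Its groups overlapped, brain replicates 1 and 2 carried the difference, and the call was lost without either of them (adjusted p up to 0.274).

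Cxcr2, the receptor of CXCL1 and CXCL2, did not pass the threshold although every brain library (2693, 2088, 2597 and 2957 CPM) lay below every blood library (4495, 4664, 5364 and 4268 CPM). Its log2 fold change was -0.86 with an adjusted p of 0.102. C5ar1, the receptor of complement C5a, had a log2 fold change of 0.89 (adjusted p 0.0871), and Fpr1, the receptor of formylated peptides, one of 0.25 (adjusted p 0.727). Of the cytokine receptors, 19 were tested, 1 was higher and the median was -0.18. This was Il1r2, the decoy receptor of interleukin-1, at 2878, 2882, 2655 and 5239 CPM in brain and 1570, 1739, 407 and 1163 CPM in blood (1.49 ± 0.42, adjusted p 0.0366). The call was lost without brain replicate 1, 3 or 4 or blood replicate 4 (adjusted p up to 0.198). Csf3r, the receptor of G-CSF, had a log2 fold change of -0.18 (adjusted p 0.751).

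Adhesion genes leaned the other way. Of 19 tested members, 3 were lower, among them Jaml and Tln1, 1 was higher (Cd9), and the median was -0.35. Jaml, a junctional adhesion molecule of leukocytes, fell by 1.44 ± 0.41 on the log2 scale (adjusted p 0.0383), and Tln1, the integrin activator talin, fell by 1.26 ± 0.36 (adjusted p 0.0384). Neither call was kept throughout: Jaml was lost without blood replicate 2, 3 or 4 or brain replicate 1, 2 or 3 (adjusted p up to 0.101), and Tln1 without blood replicate 1, 2 or 3 or brain replicate 1 or 2 (up to 0.105). Cd9, a tetraspanin, stood at 929, 1044, 1135 and 1062 CPM in brain and 289, 151, 143 and 440 CPM in blood (2.00 ± 0.36, adjusted p 0.00131). Itgam, the integrin chain CD11b, had a log2 fold change of -0.00 (adjusted p 0.995). Icam1 was too sparse to be tested, at 139, 292, 192 and 36.2 CPM in brain and 1.11, 13.9, 12 and 0 CPM in blood, with no overlap.

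Several inhibitors of NF-kB, themselves NF-kB targets, were higher in brain neutrophils. Of 31 listed genes, 11 were tested, 5 were higher (Nfkbia, Nfkbid, Nfkbiz, Tnfaip3 and Map3k8) and the median was 1.06, with 3 of the 11 past the filter through brain alone and 1 through blood alone. At an unadjusted p under 0.05, edgeR had 0 lower members, and DESeq2 called 0 lower. Nfkbia, which encodes the inhibitor that retains NF-kB in the cytoplasm, stood at 7800, 7477, 7233 and 10851 CPM in brain and 891, 1245, 331 and 604 CPM in blood (log2 fold change 3.44 ± 0.43, adjusted p 3.47e-05). Nfkbid, a nuclear inhibitor protein, stood at 464, 334, 423 and 483 CPM in brain and 21.8, 12.2, 15.9 and 24.6 CPM in blood (4.41 ± 0.32, adjusted p 3.77e-07). In both genes all brain libraries lay above all blood libraries. Tnfaip3, which encodes the ubiquitin-editing enzyme A20, stood at 418, 376, 308 and 84.5 CPM in brain and 1.84, 15.6, 3.99 and 2.01 CPM in blood (5.95 ± 0.72, adjusted p 2.44e-05). Brain replicate 4 was the lowest of the brain libraries and still above all of blood.

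The 250 bases before the start of 3 of these genes are shown because each holds a form of the kappaB motif bound by NF-kB on at least 1 strand. It was searched as 10 bases with G in the first 3 places, any base in the next 2, T in the next 3 and C in the last 2. Sequences are from RefSeq, build GRCm38.p6, 5′ to 3′ on the gene's strand, with the matches in capitals. They lie at chr5:90903649-90903898 (+ strand) for Cxcl2, chr12:55492648-55492897 (- strand) for Nfkbia and chr10:19015411-19015660 (- strand) for Tnfaip3, and the last base of each is the one before the transcript start.
Cxcl2: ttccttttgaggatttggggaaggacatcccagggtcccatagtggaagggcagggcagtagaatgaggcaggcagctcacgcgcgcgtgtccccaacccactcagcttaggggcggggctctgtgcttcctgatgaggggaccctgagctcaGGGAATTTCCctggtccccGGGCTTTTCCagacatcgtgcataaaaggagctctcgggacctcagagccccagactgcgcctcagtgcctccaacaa
Nfkbia: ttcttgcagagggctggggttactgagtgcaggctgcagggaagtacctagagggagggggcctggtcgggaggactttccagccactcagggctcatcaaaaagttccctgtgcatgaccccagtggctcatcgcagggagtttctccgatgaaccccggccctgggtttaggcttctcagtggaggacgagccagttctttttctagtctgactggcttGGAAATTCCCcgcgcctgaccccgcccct
Tnfaip3: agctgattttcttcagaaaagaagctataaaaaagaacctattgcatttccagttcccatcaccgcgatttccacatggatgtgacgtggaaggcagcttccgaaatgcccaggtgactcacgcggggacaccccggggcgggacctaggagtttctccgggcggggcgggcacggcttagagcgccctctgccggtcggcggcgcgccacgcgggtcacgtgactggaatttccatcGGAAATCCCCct
Cxcl2 held 2 matches and the other genes 1 each. In this window the searched form stood in at least 1 promoter of 447 of 27025 mouse genes (1.65%) and of 36 of the 1564 tested genes with a promoter in the table (2.3%). It stood in 7 of 95 genes higher in brain (7.37%) and in 2 of 41 lower genes (4.88%). The matches describe these letters and do not show a site in use.

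Immediate early genes are those that cells switch on within minutes of a stimulus. Of 26 tested members, 10 were higher and the median was 0.73, with 5 of the 26 past the filter through brain alone and 0 through blood alone. At an unadjusted p under 0.05, 3 were lower by edgeR, and DESeq2 called 2 lower. Dusp2, a phosphatase that switches off MAP kinases, stood at 139, 292, 192 and 326 CPM in brain (adjusted p 7.11e-07). It had no count in the 4 blood libraries after rounding, and 9.93e-05 CPM pooled before it. Taking 3 rounded counts over the blood group as a floor, Dusp2 was at least 480-fold higher in brain. This floor covers counting error only, not the unknown step that left the deposited counts fractional. Pooled brain dendritic cells held Dusp2 at 381 CPM and monocyte-derived cells at 386, against 252 in brain neutrophils. The part of their RNA was not tested. Nr4a1, a nuclear receptor, stood at 279, 334, 269 and 676 CPM in brain and 1.48, 8.69, 0 and 1.51 CPM in blood (log2 fold change 7.40 ± 0.56, adjusted p 3.77e-07). The other members called were Egr1 (6.03), Ppp1r15a (4.14), Gadd45b (3.55), Ier3 (2.98), Btg2 (2.52), Cebpb (1.91), Csrnp1 (1.91) and Junb (1.28). Junb, a subunit of the factor AP-1, stood at 2414, 1838, 2693 and 4732 CPM in brain and 1206, 1396, 1216 and 1058 CPM in blood (1.28 ± 0.34, adjusted p 0.0275), and its call was lost without brain replicate 3 or 4 (adjusted p up to 0.236). Fos, the partner of Jun proteins in AP-1, had a log2 fold change of -0.27 (adjusted p 0.7), at 836, 292, 1212 and 1521 CPM in brain and 1240, 1633, 1128 and 875 CPM in blood.

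Among genes of the response to low oxygen, 5 of 13 tested were higher (Hilpda, Bhlhe40, Mif, Slc16a3 and Plin2), and the median was 0.99, with 4 of the 13 past the filter through brain alone and 4 through blood alone. Plin2 was called in 2 of 8 fits without 1 library. Hilpda, which inhibits the breakdown of lipid droplets, stood at 371, 334, 231 and 278 CPM in brain and 0, 0, 0 and 3.01 CPM in blood (log2 fold change 7.84 ± 0.65, adjusted p 7.11e-07). All of its 6 blood counts were in replicate 4. Bhlhe40, a repressor of transcription, stood at 232, 209, 154 and 96.6 CPM in brain and 4.06, 3.48, 3.99 and 3.01 CPM in blood (5.37 ± 0.56, adjusted p 4.78e-06). Slc16a3, the lactate exporter MCT4, stood at 557, 585, 1135 and 1569 CPM in brain and 477, 205, 143 and 383 CPM in blood (1.72 ± 0.41, adjusted p 0.0128), and the call was lost without brain replicate 3 or 4 (adjusted p up to 0.115). The oxygen-regulated subunit Hif1a itself had a log2 fold change of -0.03 (adjusted p 0.973), and the glucose transporter gene Slc2a1 one of 1.47 (adjusted p 0.0975). In pooled brain cells, dendritic cells held Bhlhe40 at 292 CPM against 136 in neutrophils, and monocyte-derived cells held Hilpda at 391 against 272. Slc16a3 was highest in neutrophils, at 1142 CPM. The part of RNA from other cells was not tested.

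Genes of glycolysis did not share a direction. Of 18 tested, 1 was higher (Slc16a3) and 1 lower (Gapdh), with a median of -0.32. Gapdh, a glycolytic enzyme, stood at 371, 167, 57.7 and 278 CPM in brain and 878, 756, 662 and 716 CPM in blood (log2 fold change -1.85 ± 0.39, adjusted p 0.00573). It has many processed copies in the genome, so its count is uncertain. Ldha, lactate dehydrogenase, had a log2 fold change of 0.39 (adjusted p 0.492). Of 38 tested nuclear genes of oxidative phosphorylation, 33 had a positive log2 fold change (879 of 1976 over all genes tested), 12 passed the filter through blood alone, the median was 0.36 and 2 were called higher: Ndufa2 of complex I (1.18 ± 0.32, adjusted p 0.0297) and Uqcrq of complex III (1.05 ± 0.31, adjusted p 0.0459). The call of Ndufa2 was lost without blood replicate 2 or any 1 brain library (adjusted p up to 0.125), and that of Uqcrq without any 1 blood library or brain replicate 1, 3 or 4 (up to 0.156).

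Iron and antioxidant genes differed gene by gene. Of 16 tested, 3 were higher (Slc7a11, Prdx6 and Fth1) and 1 lower (Slc40a1), with a median of -0.03. Slc40a1 encodes ferroportin, the exporter of iron, and stood at 46.4, 125, 154 and 145 CPM in brain and 552, 697, 905 and 447 CPM in blood (log2 fold change -2.32 ± 0.38, adjusted p 5.98e-04). Fth1, the heavy chain of the iron store ferritin, stood at 16296, 35296, 24718 and 27352 CPM in brain and 8339, 7851, 5368 and 6315 CPM in blood (1.89 ± 0.38, adjusted p 0.00412); it too has processed copies. The groups of both genes were apart. Slc7a11, the cystine importer, stood at 371, 585, 96.2 and 72.4 CPM in brain and 32.5, 36.5, 39.9 and 28.6 CPM in blood (2.70 ± 0.56, adjusted p 0.00466). Brain replicates 1 and 2 were the highest, and with both left out it was not called (log2 fold change 1.26, adjusted p 0.197). Prdx6, a peroxiredoxin, rose by 1.99 ± 0.34 (adjusted p 8.07e-04).

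Receptors that sense microbial and danger signals included 6 higher members of 21 tested (Cd14, Tlr2, Trem1, Clec4e, Nlrp3 and Clec5a) and 1 lower (Clec7a), with a median of -0.22. Of 8 fits without 1 library, Clec5a was called in 1, Nlrp3 in 6 and Clec4e in 7. Cd14, the co-receptor for lipopolysaccharide, stood at 3111, 2088, 3636 and 5951 CPM in brain and 527, 313, 112 and 197 CPM in blood (log2 fold change 3.68 ± 0.48, adjusted p 4.99e-05). Tlr2, a receptor for lipopeptides, stood at 557, 334, 346 and 386 CPM in brain and 88.1, 52.2, 39.9 and 72.3 CPM in blood (2.55 ± 0.32, adjusted p 3.47e-05). Tlr4, the partner of CD14, had a log2 fold change of 0.97 (adjusted p 0.315), and its groups overlapped. Clec7a, the beta-glucan receptor dectin-1, fell by 1.35 ± 0.41 (adjusted p 0.0485), a call that was lost without brain replicate 1, 2 or 3 or blood replicate 1, 2 or 3 (adjusted p up to 0.101).

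Of 25 tested interferon-responsive genes, 2 were higher (Isg15 and Rsad2), 1 was lower (Slfn1) and the median was -0.03, shares close to the 6.58% and 2.58% over all genes tested. Isg15, a ubiquitin-like modifier, stood at 604, 209, 539 and 302 CPM in brain and 95.5, 48.7, 87.7 and 56.3 CPM in blood (log2 fold change 2.50 ± 0.36, adjusted p 1.45e-04). Rsad2, the antiviral enzyme viperin, rose by 1.99 ± 0.34 (adjusted p 8.07e-04). The size of these differences varied with the blood cells compared. The authors' blood code Neu5 held Isg15 at 515 CPM against 15.9 to 42.5 CPM in the other blood codes. Against Neu5 alone the log2 fold change was -0.09 for Isg15 and -1.03 for Rsad2. The codes were made from the same cells, so these values are a description without a test. Pooled monocyte-derived brain cells held Isg15 at 622 CPM and Rsad2 at 292, against 377 and 280 in brain neutrophils. The part of their RNA was not tested. Slfn1 fell by 1.20 ± 0.33 (adjusted p 0.0326), and the call was lost without blood replicate 1 or brain replicate 1, 2 or 4 (adjusted p up to 0.0717).

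Lysosomal genes were called in 1 direction only. Of 26 tested members, 24 had a positive log2 fold change, 9 were called higher and the median was 0.86, with 3 past the filter through brain alone and 2 through blood alone. At an unadjusted p under 0.05, edgeR had 0 lower members, and DESeq2 called 0 lower. Cd63, a membrane protein of lysosomes and azurophilic granules, stood at 604, 2464, 750 and 1074 CPM in brain and 111, 151, 87.7 and 233 CPM in blood (log2 fold change 3.01 ± 0.43, adjusted p 1.34e-04). Ctsb, the protease cathepsin B, stood at 929, 1337, 1154 and 676 CPM in brain and 320, 282, 251 and 247 CPM in blood (1.87 ± 0.29, adjusted p 3.52e-04). Brain replicate 2 was the highest in both. Microglia held Ctsb at 9.48 times the level of the brain neutrophils, and microglia or other brain cells held other called members at over 10 times their level, among them Ctss at 21.1 times and Ctsz at 11.8 times. The part of RNA from those cells in these values was not tested. Further called members were Psap (1.66), Lamp1 (1.48), Grn (1.31) and Npc2 (1.25), and the libraries of Psap and Grn overlapped. Of 8 fits without 1 library, Npc2 was called in 7, Lamp1 in 4, Psap and Grn in 3 and Ctss in 1, and Ctsz in 2 of the 4 that tested it, while Cd63 and Ctsb were called in all 8.

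Matrix proteases and their inhibitors had 2 higher members of 14 tested (Cstb and Plaur), 1 lower (Stfa2l1) and a median of -0.93. Of the 14, 7 passed the filter through blood alone and 0 through brain alone. Cstb, the cathepsin inhibitor cystatin B, stood at 836, 2757, 923 and 579 CPM in brain and 117, 78.2, 99.6 and 142 CPM in blood (log2 fold change 3.46 ± 0.44, adjusted p 3.47e-05). Plaur, the urokinase receptor, rose by 1.85 ± 0.35 (adjusted p 0.00201), and the call was lost without brain replicate 4 (adjusted p 0.0801). Stfa2l1, one of a family of stefin A genes with near-identical copies, fell by 1.26 ± 0.37 (adjusted p 0.0458), and the call was lost without blood replicate 1, 3 or 4 or brain replicate 1, 2 or 4 (up to 0.115). In the list of lipid mediators and lipid handling, 3 of 11 tested genes were higher (Ptgs2, Hilpda and Plin2), with a median of -0.07. Ptgs2, the inducible cyclooxygenase of prostaglandin synthesis, stood at 1207, 710, 558 and 169 CPM in brain and 1.11, 20.9, 12 and 0 CPM in blood (7.10 ± 0.86, adjusted p 2.42e-05).

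Of 19 tested granule protein genes, 1 was higher (Cd63), a share near the 6.58% over all genes tested, and the median was -0.74. At an unadjusted p under 0.05, 7 members were lower by edgeR, and DESeq2 called 3 lower. Mmp9, the gelatinase of tertiary granules, stood at 1161, 1128, 1539 and 1231 CPM in brain and 1053, 956, 1108 and 1648 CPM in blood (log2 fold change 0.09 ± 0.30, adjusted p 0.896). Mmp8, the collagenase of specific granules, stood at 511, 919, 1924 and 2245 CPM in brain and 2309, 3048, 2503 and 3209 CPM in blood (-0.93 ± 0.40, adjusted p 0.156), without overlap. Lcn2, which encodes neutrophil lipocalin, had a log2 fold change of -0.69 (adjusted p 0.323). Ngp, a protein of immature neutrophils, stood at 0, 334, 654 and 302 CPM in brain and 215, 972, 159 and 7686 CPM in blood (-2.70 ± 1.01, adjusted p 0.108), with blood replicate 4 far above the rest. Camp, the antimicrobial cathelicidin, had no count in the 4 brain libraries, which allows up to 16.6 CPM over the group (3 counts of the scaled total), and stood at 48.3, 631, 0 and 5686 CPM in blood. Of 15 tested genes of immature neutrophils, 1 was higher (Cd63), and the median was -0.69. The most abundant neutrophil transcripts, S100a8 (-0.52, adjusted p 0.488) and S100a9 (-0.39, adjusted p 0.605), did not pass the threshold. S100a9 stood at 51533, 37718, 80732 and 73666 CPM in brain and 110386, 48203, 61759 and 99760 CPM in blood.

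Genes of cell death and survival included 4 higher members of 18 tested (Bcl2a1b, Cdkn1a, Pim1 and Ninj1) and 1 lower (Casp1), with a median of 0.17. Bcl2a1b, an inhibitor of apoptosis with near-identical copies, stood at 371, 543, 346 and 72.4 CPM in brain and 5.16, 12.2, 0 and 4.52 CPM in blood (log2 fold change 5.65 ± 0.63, adjusted p 1.08e-05). Cdkn1a, the cell cycle inhibitor p21, stood at 511, 292, 173 and 314 CPM in brain and 9.59, 6.96, 7.97 and 1 CPM in blood (5.61 ± 0.56, adjusted p 3.36e-06). Ninj1 is known for the rupture of the membrane in lytic cell death. Monocyte-derived brain cells held Cdkn1a at 4.9 times the level of the brain neutrophils. Casp1, the protease of inflammasomes and of pyroptosis, fell by 1.79 ± 0.52 (adjusted p 0.0427), a call that was lost without blood replicate 1, 3 or 4 or any 1 brain library (adjusted p up to 0.0894). Mcl1, which sustains neutrophil survival, had a log2 fold change of -0.18 (adjusted p 0.784).

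Among transcription factors of neutrophils, 5 of 17 tested were higher (Bhlhe40, Ets2, Cebpb, Nfil3 and Junb), with a median of 0.46. Ets2 stood at 464, 418, 731 and 495 CPM in brain and 146, 144, 31.9 and 62.8 CPM in blood (log2 fold change 2.42 ± 0.40, adjusted p 6.75e-04). In the list of heat shock and unfolded protein genes, 2 of 12 tested were higher (Trib1 and Pdia3), with a median of 0.81. Pdia3 was called in 1 of 8 fits without 1 library, and Trib1 does not itself fold proteins. Trib1, an adaptor that targets C/EBP proteins for degradation, was called at 1.45 ± 0.39 (adjusted p 0.0266), and not without blood replicate 1, 3 or 4 or brain replicate 1, 3 or 4 (adjusted p up to 0.0782). Of 11 tested glucocorticoid-responsive genes, 2 were higher (Il1r2 and Cxcr4) and 1 lower, and the median was -0.69. The lower gene was Klf13 (-1.31 ± 0.38, adjusted p 0.0437), whose call was lost without blood replicate 1, 2 or 4 or brain replicate 1, 2 or 3 (adjusted p up to 0.0994). Tsc22d3, the classical glucocorticoid-induced leucine zipper, had a log2 fold change of -0.51 (adjusted p 0.361). Of 15 tested genes of antigen presentation and checkpoints, the co-stimulator Cd80 was higher (2.43 ± 0.50, adjusted p 0.00412; 2.14, adjusted p 0.058, without brain replicates 1 and 2), and the median was 0.01.

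Ribosomal protein genes, many with processed copies, had 7 higher members of 64 tested and a median of 0.25. In 3 lists edgeR called no gene. Of 41 tested cytoskeleton and motility genes, whose median was -0.47, 2 higher and 6 lower were under an unadjusted p of 0.05 and DESeq2 called 1 higher and 4 lower. Of 7 tested NADPH oxidase genes, whose median was 0.04, 0 higher and 0 lower were under that p and DESeq2 called 0 higher and 0 lower. Of 8 tested Fc and complement receptor genes, whose median was -0.05, 1 higher and 0 lower were under it and DESeq2 called 1 higher and 0 lower. Fcgr3 (-0.10, adjusted p 0.912), Fcgr4 (-0.58, adjusted p 0.411) and the oxidase subunit Cybb (-0.77, adjusted p 0.62) were among these.

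**Figure D2:**
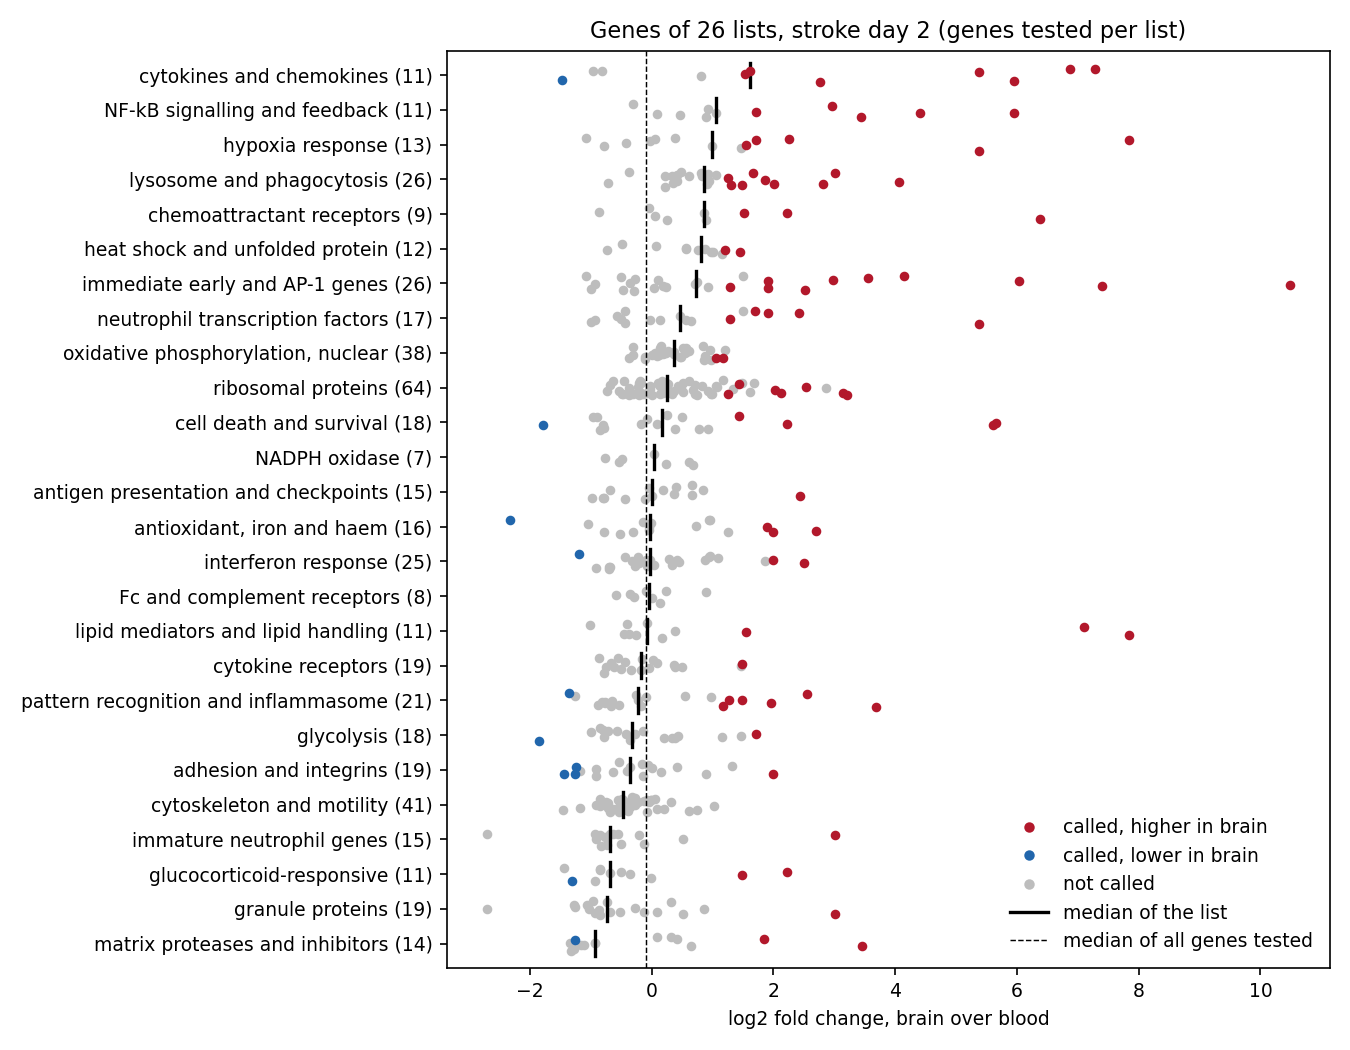
Log2 fold change, brain over blood at stroke day 2 (x axis), of every tested gene in 26 lists (y axis, genes tested in brackets). Red points are genes called higher in brain, blue points genes called lower, grey points genes not called, black bars the list medians and the dashed line the median of all genes tested, -0.09. The cytokine list has the highest median at 1.61 and the protease list the lowest at -0.93. Of 11 cytokine genes, 4 passed the filter through brain alone and 1 through blood alone, and of 14 protease genes 0 and 7. The rightmost point, Dusp2, has a position that depends on the prior count because blood had none.

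The same comparison was made in other libraries, of sham-operated mice at day 2 (4 brain, 4 blood) and of mice at stroke day 14 (4 brain, 3 blood). It used 1 fit of 2736 genes over all groups of this age, male mice of 8 to 10 weeks. The recorded ages in sham were 8, 8, 10 and 8 weeks in brain and 9, 10, 9 and 8 in blood. At day 14 they were 10, 8, 8 and 8 weeks in brain and 9, 9 and 8 in blood. Ages of brain and blood thus overlapped here and not at stroke day 2. Contrasts of stroke day 2 with these groups therefore also carry an age difference. In sham, 108 genes were higher in brain (3.95%) and 34 lower (1.24%). At day 14, 301 were higher (11%) and 286 lower (10.5%). Of the 130 genes higher at stroke day 2, 42 were called higher in sham, a share of 42 of the 108 there, and 102 at day 14, a share of 102 of the 301. Of the 51 lower genes, 6 were called lower in sham, of 34 there, and 28 at day 14, of 286. No gene was called in the opposite direction. The 130 genes had a median log2 fold change of 1.04 in sham and 2.17 at day 14, and the 51 genes one of -0.38 and -1.31.

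Cxcl2 and Nfkbia were also higher in brain neutrophils of sham mice (adjusted p 3.84e-06 and 7.88e-05). In the joint fit, the log2 fold change of Cxcl2 was 4.64 ± 0.62 in sham, 5.23 ± 0.63 at stroke day 2 and 9.16 ± 0.88 at day 14. Brain neutrophils of sham mice held Cxcl2 at 4103 ± 1308 CPM (SD, n = 4), those of stroke day 2 at 12284 ± 3111 CPM, and the blood groups stood at 159 ± 151 and 327 ± 239 CPM. Nfkbia had 2.33 ± 0.38 in sham, 3.31 ± 0.39 at day 2 and 4.61 ± 0.47 at day 14. The tissue difference at stroke day 2 did not differ by the interaction test from that in sham for Cxcl2 (difference 0.59 ± 0.76, adjusted p 0.768) or Nfkbia (0.98 ± 0.51, adjusted p 0.39), which leaves room for differences of that size. Tnf had 3.62 ± 1.05 in sham and 6.72 ± 0.57 at day 2, a difference of 3.10 ± 1.19 (adjusted p 0.244).

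The interaction test between stroke day 2 and sham called 10 genes with a more positive tissue difference after stroke (0.365% of 2736) and 2 with a more negative one (0.0731%). The 10 were Cstb, Gadd45b, Nfkbid, Ier3, Cd63, Ctsb, Basp1, Igfbp6, Rab32 and Mrps24. For Cstb, brain neutrophils of sham mice held 177, 132, 142 and 66.5 CPM and those of stroke day 2 held 759, 2412, 950 and 622 CPM. Blood neutrophils held Cstb at 112 to 195 CPM in sham and 82.5 to 152 CPM after stroke. The log2 fold change of Cstb was -0.28 ± 0.44 in sham and 3.26 ± 0.38 at day 2 (difference 3.54 ± 0.57, adjusted p 5.99e-04). Gadd45b, a stress-induced gene, had 0.41 ± 0.35 and 3.42 ± 0.32 (difference 3.0 ± 0.46, adjusted p 5.99e-04). Ctsb had 0.02 ± 0.29 and 1.71 ± 0.28 (difference 1.70 ± 0.40, adjusted p 0.0448), and its brain level was 323 ± 38.3 CPM in sham, 982 ± 233 CPM at day 2 and 1872 ± 373 CPM at day 14 (SD, n = 4 each). Cd63 had 0.48 ± 0.43 and 2.84 ± 0.38 (difference 2.36 ± 0.56, adjusted p 0.0448). Monocyte-derived cells of the brain libraries held Cstb at 3.89 times and microglia Cd63 at 2.43 times the level of the brain neutrophils, and the monocyte-derived cells (code MdC) numbered 43 to 99 in a sham brain library and 1468 to 2180 in one of stroke day 2. The part of their RNA in these differences was not tested. No sham brain library of Cstb or Cd63 reached the lowest brain library of stroke day 2.

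The 2 genes on the other side were Camp and Mgam, a maltase-glucoamylase of neutrophils. Camp stood at 12305, 7391, 3380 and 10836 CPM in brain neutrophils of sham mice and had no count in those of stroke day 2, while blood ranged from 0 to 1029 CPM in sham and 0 to 6106 CPM after stroke. Mgam stood at 127 ± 7.24 CPM in sham brain (SD, n = 4), had no count in brain at stroke day 2 or day 14, and stood at 79.2 to 95.3 CPM on average in the blood groups. At stroke day 2 it was at least 4.16-fold lower in brain than in blood. The mix of the authors' finer codes, given below, also differed between these brain groups, and its part in the 2 genes was not tested. The number of genes called by this interaction ranged from 3 (without brain stroke replicate 3) to 25 (without blood sham replicate 2). Between day 14 and day 2, edgeR called 2 genes with a more positive difference at day 14 (0.0731%) and 0 with a more negative one (0%), with 255 genes at an unadjusted p under 0.05, and with 1 library left out it called 0 to 5. They were Ctsb (difference 2.07 ± 0.41, adjusted p 0.0208) and Osm, the cytokine oncostatin M (3.40 ± 0.62, adjusted p 0.0138), whose log2 fold change was 1.59 ± 0.38 in sham, 0.70 ± 0.43 at day 2 and 4.10 ± 0.47 at day 14.

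**Figure D3:**
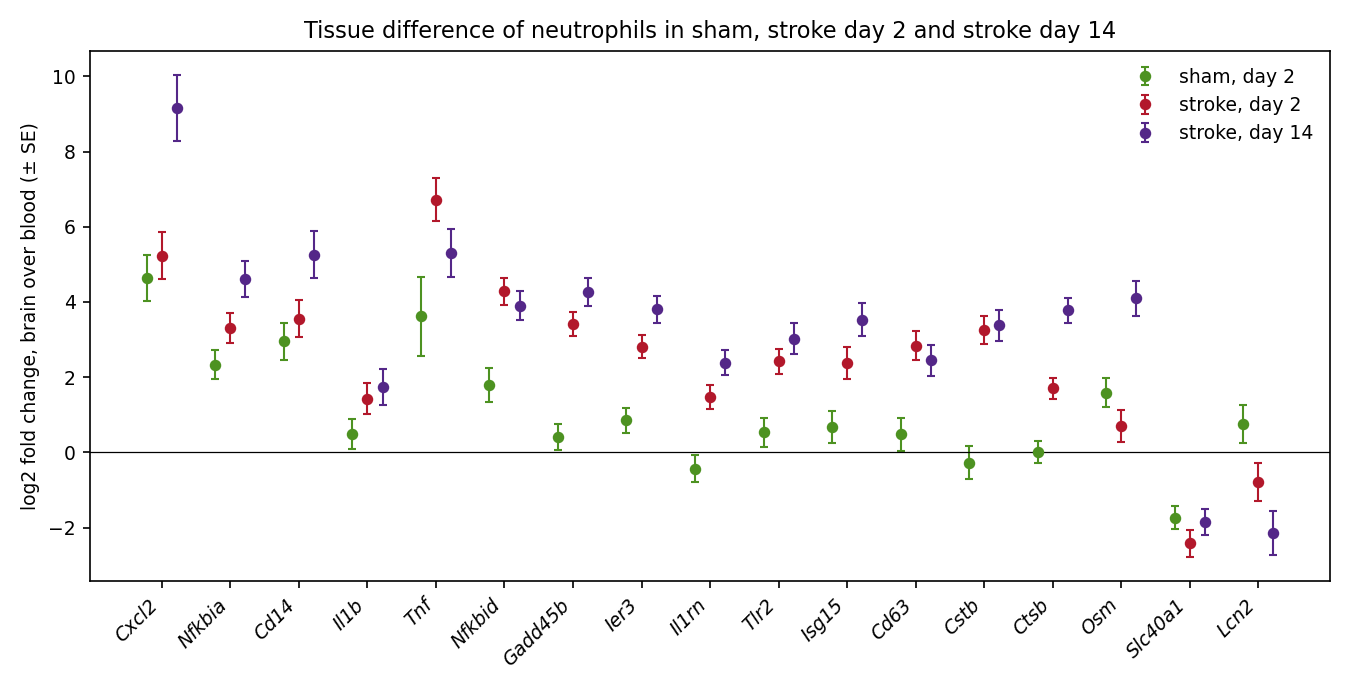
Log2 fold change of neutrophils, brain over blood (y axis), for 17 genes in sham mice at day 2 (green), stroke day 2 (red) and stroke day 14 (purple), with SE bars. Cxcl2 and Nfkbia lie above 0 in all 3 groups, while Cstb, Gadd45b, Cd63 and Ctsb lie near 0 in sham and above it after stroke.

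Monocyte-lineage cells of the same 8 libraries (the authors' codes MdC in brain and Mo in blood) give a second cell type that passed through the same handling. Of the 130 genes higher in brain neutrophils, 127 were tested in these cells, 100 were also higher in brain, 1 was lower and the median was 2.32, beside -0.03 over the 1900 genes tested in both, of which 357 were higher and 339 lower. Of the 51 lower genes, 46 were tested, 32 were lower and 0 higher, with a median of -1.36. A direct test of the difference between the cell types, with the library as a block, covered 6680 genes and called 177 more positive in neutrophils (2.65%) and 509 less positive (7.62%). This split depends on scaling, since without TMM it was 367 and 125. The differences come from a joint fit of both cell types, and over 1900 genes they had a median offset of -0.62 from the gap between the fold changes of the 2 separate fits. Their median over the genes of the joint fit was -0.46, and 0.43 without TMM. Among the 130 genes, 18 differed towards neutrophils, 41 towards monocyte-lineage cells, and 71 were not called, against 31, 16 and 83 without TMM.

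Immediate early genes differed in both directions, with 5 of 32 more positive in neutrophils and 15 less positive, counts that carry the offset above. In separate fits Nr4a1 had a log2 fold change of 7.40 ± 0.56 in neutrophils and 1.82 ± 0.34 in monocyte-lineage cells (difference in the joint fit 5.00 ± 0.50, 5.91 without TMM, adjusted p 6.59e-15), and Egr1 one of 6.03 and 2.53 (difference 3.42 ± 0.75, adjusted p 3.94e-04). Bcl2a1b (difference 2.38 ± 0.52, adjusted p 3.67e-04), Bhlhe40 (2.40 ± 0.61, adjusted p 0.00333) and Ccl3 (2.31 ± 0.68, adjusted p 0.0135) were on the same side. Blood monocytes held Nr4a1 at 162 ± 63.1 CPM and blood neutrophils at 3.71 ± 4.81 CPM (SD, n = 4 each, on the scale of this fit).

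Il1b, Cxcl2 and Cd63 had the larger difference in monocyte-lineage cells, with and without TMM. Il1b rose from 52.8 ± 73.3 CPM in blood monocytes to 6173 ± 2782 CPM in brain, and from 6855 ± 1587 to 13173 ± 7809 CPM in neutrophils (difference -6.28 ± 0.52, adjusted p 1.46e-19). For Cxcl2 the difference was -4.70 ± 0.55 (adjusted p 7.99e-12), with 6.21 ± 5.91 CPM in blood monocytes and 393 ± 279 CPM in blood neutrophils. Cd63 (-6.83 ± 0.59, adjusted p 1.06e-18), Il1rn (-4.00 ± 0.48, adjusted p 3.98e-11) and Isg15 (-2.91 ± 0.40, adjusted p 8.92e-09) were on the same side. In brain, Cxcl2 stood at 10483 ± 3715 CPM in neutrophils and 3823 ± 1066 CPM in monocyte-lineage cells. NF-kB feedback genes did not pass the test: Nfkbia differed by -0.59 ± 0.38 (adjusted p 0.365; 0.34 without TMM), Tnfaip3 by 0.73 ± 0.86 (adjusted p 0.676) and Nfkbid by 0.64 ± 0.52 (adjusted p 0.504). Ccrl2 (0.49 ± 0.47, adjusted p 0.588) and Hilpda (0.69 ± 0.91, adjusted p 0.718) did not either. In that list 0 of 27 genes were called, with 2 at an unadjusted p under 0.05 in edgeR; DESeq2 was not run on this contrast.

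**Figure D4:**
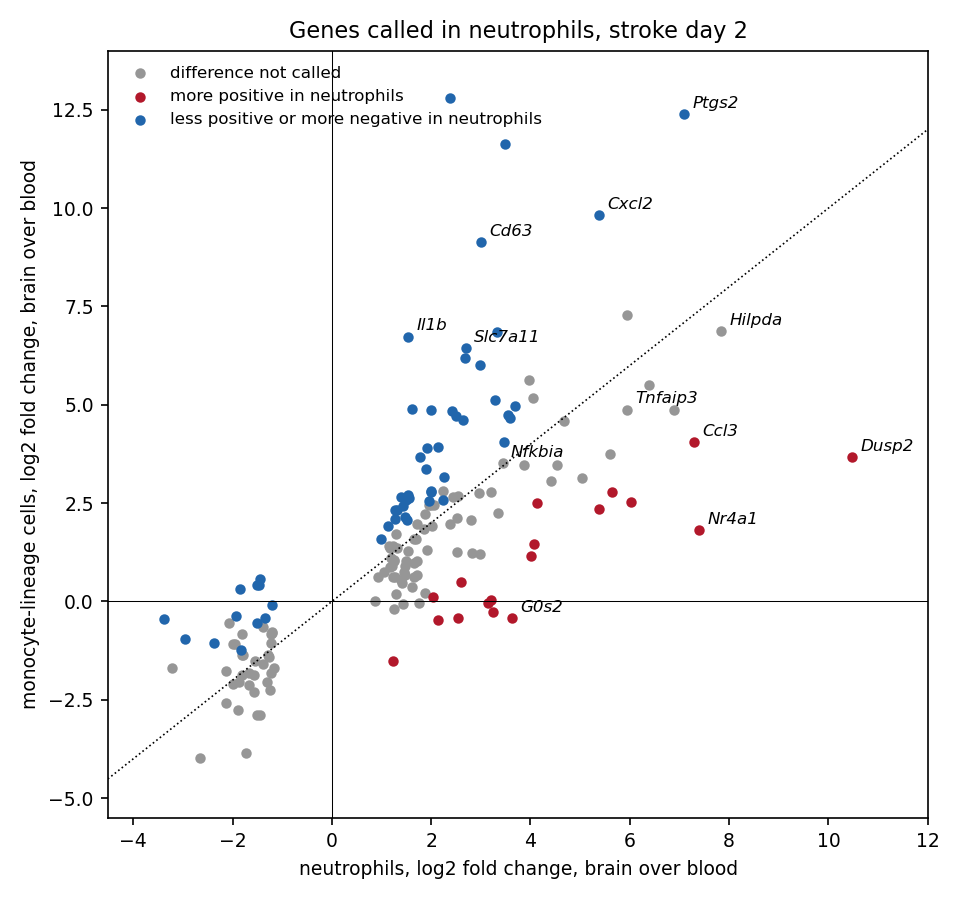
Log2 fold change, brain over blood at stroke day 2, in neutrophils (x axis) and monocyte-lineage cells (y axis) of 173 genes called in neutrophils and tested in both. Colours give the test of the difference: red for the 18 genes more positive in neutrophils, blue for the 53 less positive, grey for the 102 not called (a joint fit whose split depends on scaling), and the dotted line marks equal values. Most points lie in the 2 quadrants of equal sign, and genes with no count in a blood group, such as Dusp2 in neutrophils and Ptgs2 in monocytes, have positions that depend on the prior count.

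The authors' finer codes divided the brain neutrophils of stroke day 2 into Gran2 with 169 cells (48.3%, 45.9% to 58.5% per library), Gran1 with 124 (35.4%, 20% to 44.6%), Gran3 with 29 (8.29%, 2.7% to 24%, 18 of the 29 in brain replicate 2), and Gran4 to Gran6 with 3, 10 and 15. These codes were made from the same cells, so levels by code are given as a description without a test. Pooled over the 4 libraries, Gran1 held Cxcl2 at 4570 CPM, Nfkbia at 2649, Cd14 at 1832 and Tnf at 22.1, while Gran2 held 21557, 15718, 7212 and 933 CPM. Blood code Neu1, the commonest with 47.3% of blood neutrophils, held Cxcl2 at 252, Nfkbia at 878, Cd14 at 517 and Tnf at 2.26 CPM. In each of the 4 libraries Gran2 exceeded Gran1 in Cxcl2, from 16316 to 25555 CPM against 3116 to 5927 CPM. Mmp8 ran the other way, at 3146 CPM in Gran1, 320 in Gran2 and none in Gran3, against 1521 in Neu1 and 3983 in Neu2. In sham brains 75.6% to 90.8% of neutrophils carried the code Gran1 and 7.04% to 21.1% the code Gran4. At stroke day 2, Gran4 was 1.33% to 1.89% in the 3 brain libraries that held it. There its 3 cells held the listed genes of immature neutrophils at 84481 CPM in sum, against 46913 in Gran1 and 10798 in Gran2.

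Gran3 stood apart from the other codes. It held Hilpda at 1915 CPM, Cd63 at 6989, Cstb at 5936 and Ctsb at 2776, against 360, 1413, 1200 and 1266 CPM in Gran2, and its neutrophil markers summed to 36668 CPM against 133900 in Gran2, 266640 in Gran1 and 233543 in Neu1. Camp was found mainly in blood code Neu6, at 29995 CPM, a code with 0.958% to 8.46% of the neutrophils of a blood library and most frequent in blood replicate 4. Without Gran3, 105 genes were called higher and 42 lower. With Gran2 alone as brain cells, 191 were higher and 170 lower. Because the codes were made from the same cells, such counts of calls by code are descriptions. With Gran1 alone, which left 2 brain libraries with at least 20 such cells (replicates 3 and 4), 19 were higher and 4 lower, and with those same 2 libraries and all their neutrophils 107 were higher and 23 lower.

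**Figure D5:**
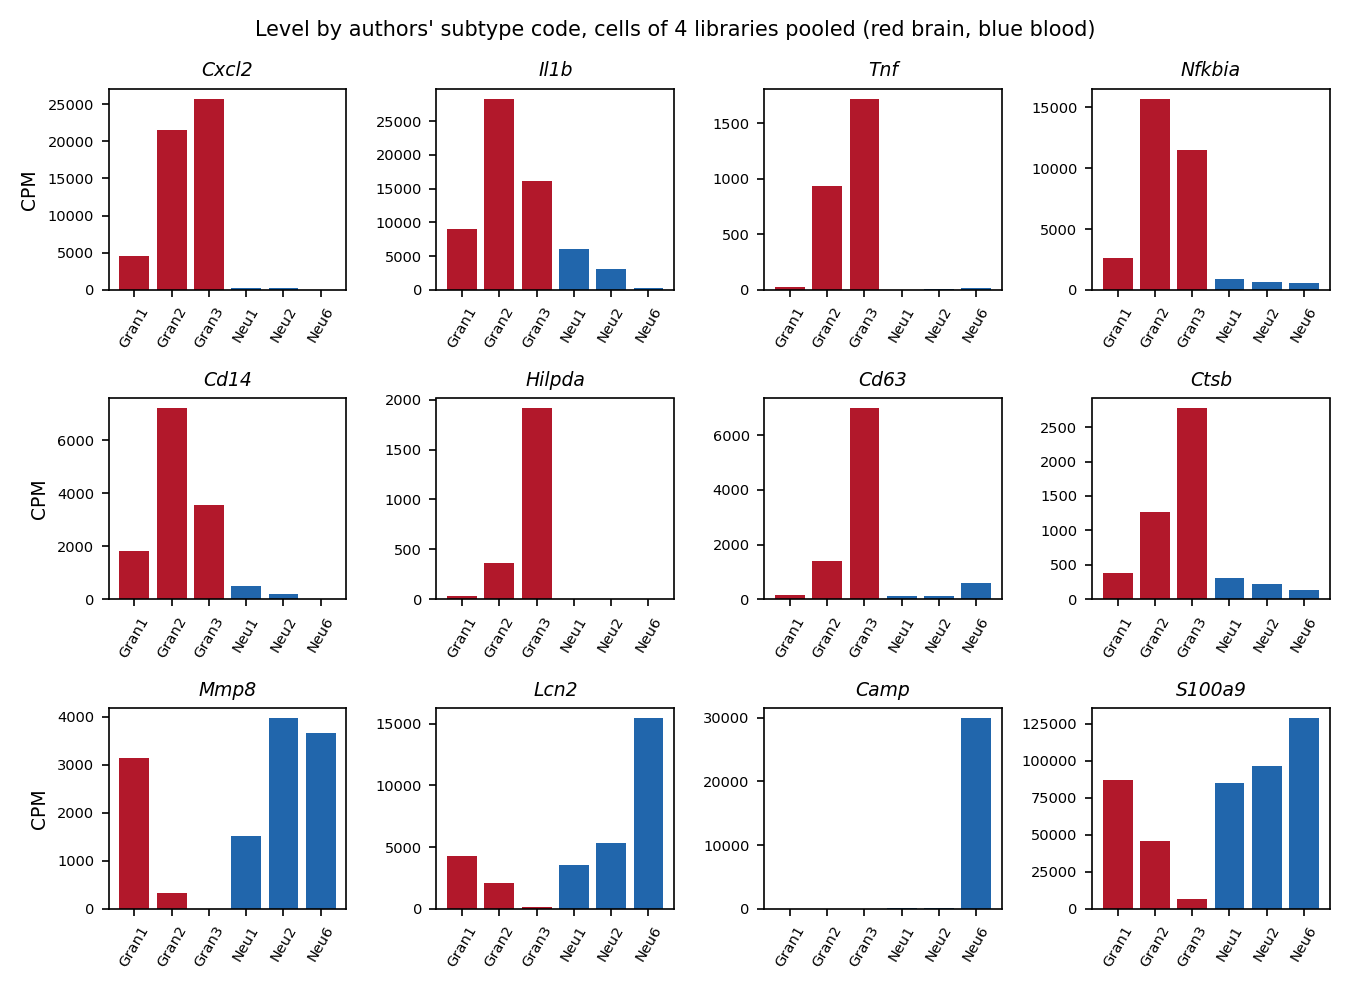
Level (y axes, CPM, each from 0) of 12 genes in 3 authors' codes of brain neutrophils (red: Gran1, Gran2, Gran3) and 3 of blood neutrophils (blue: Neu1, Neu2, Neu6), with the cells of 4 libraries pooled and no error. Cxcl2, Tnf, Nfkbia, Cd14 and Il1b are higher in Gran2 than in Gran1, Hilpda, Cd63 and Ctsb are highest in Gran3, and Camp is seen in Neu6 at 29995 CPM.

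Shares of cells with at least 1 count were compared for 78 named genes after thinning each cell to 300 counts, which left 258 brain and 8446 blood neutrophils (92 and 367 shallower cells were left out). The shares of 50 genes did not overlap between the 4 brain and the 4 blood libraries, 34 higher and 16 lower in brain, and each of these had the smallest p that an exact two-sided permutation test of 4 against 4 allows, 0.0286 (adjusted p 0.0446). Part of the genes had been named because their levels did not overlap, so the count is a description. Cxcl2 was seen in 78.9% ± 9.13 of brain neutrophils and 7.04% ± 5.1 of blood neutrophils (SD, n = 4 each; 83.1% and 10.1% of all cells without thinning), and in 0% of brain endothelial and blood B cells, which should lack it. Nfkbia was seen in 71.1% ± 12.2 against 19% ± 8.55 (unthinned 80.6% and 35.1%), with 31.8% of endothelial and 17.7% of B cells, which use this gene too. Cd14 was seen in 52.5% ± 6.02 against 7.28% ± 3.75 (unthinned 59.4% and 16.4%), with 0.713% of endothelial and 0% of B cells. The shares of 0% rest on rounded counts. Before rounding, pooled Cxcl2 was 2.49e-12 CPM in endothelial cells and 8.17e-11 CPM in B cells. The step that left the deposited counts fractional is not known, so these shares are no measure of free RNA. Il1b, by contrast, was found in 81.5% ± 8.7 of brain and 66.3% ± 10.3 of blood neutrophils, where the libraries overlapped (exact adjusted p 0.124; unthinned 88.9% and 79.1%).

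Some shares were lower in brain. Cxcr2 was seen in 46.2% ± 7.49 of brain and 72.4% ± 5.3 of blood neutrophils (unthinned 58.6% and 88.4%), without overlap. S100a9 was seen in 86.2% ± 12.8 of brain and 99.9% ± 0.122 of blood neutrophils, so that some cells with the brain code had no count of this marker at this depth. With counts rounded to whole numbers per gene and cell, as the thinning needs, the median depth of the brain neutrophils was 293 to 742 counts per cell, of the blood neutrophils 375 to 694, of the endothelial cells 491 to 1058 and of the B cells 328 to 621. Thinned to 500 counts, where brain replicates 1 and 2 kept 9 and 3 neutrophils, no gene passed the adjusted threshold, and none did without any 1 blood library. The adjusted value of the smallest p depends on how many genes reach it. A smaller share of cells with a count and fewer transcripts in each cell cannot be told apart here.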

How the data were processed

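The deposited files hold Drop-seq expected counts (mostly not whole) per gene and cell and, per cell, the total, the number of genes as a count, the percent of mitochondrial counts and the authors' cell codes. Seurat and build mm10 are listed in the submitters' processing notes; the aligner, the cell filters and the step that made the counts fractional are not given in the sources used here. Expected counts were summed per library and parent code over genes in both tissues' tables and rounded. All libraries had at least 20 neutrophils. The main test was edgeR 4.0.16 (R 4.3.3; TMM, filterByExpr, quasi-likelihood) on the 4 brain and 4 blood libraries, with Benjamini-Hochberg adjustment and calls at an adjusted p under 0.05; every adjusted p is edgeR's unless an exact test is named. DESeq2 1.42.0 was an alternative. Sham and day 14 libraries entered 1 fit of all groups of this age with interaction contrasts, and neutrophils and monocyte-lineage cells 1 fit with the library as a block. Counting limits cover counting error only. The 181 calls rest on libraries of 19110 to 2949522 counts, the brain libraries being the shallower.

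The comparison, gene lists and named genes were chosen with earlier results of these data known. The text names 49 genes fixed by name, the 2 called genes with the largest fold changes in each direction of each of 25 lists, and the 5 in each direction outside the lists, where the higher group reached 50 CPM, libraries did not overlap and no other type of at least 500 cells held over 10 times the level; other members were named to complete a list, and some genes that met the rule are not reported here. Alternatives were normalization, filter, rounding, depth, replicate block, single blood or brain codes and each library left out. The summation and tests were checked on simulated data. Promoters came from a RefSeq table of build GRCm38.p6, matched by symbol.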

Additional observations from a re-analysis of the deposited data

Results flagged for a closer look

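Of 188 groups of 4 libraries examined, 20 had 1 library far from the other 3 (those reported are given here), where about 1 in 20 groups (9.4) is due to chance. Among the brain libraries, replicate 4 was the highest for Nfkbia (10851 CPM), Il1r2 (5239 CPM), Nr4a1 (676 CPM) and Cers6 (36.2 CPM). Brain replicate 2 was the highest for Cstb (2757 CPM) and Clec4n (1211 CPM) and the lowest for Clec7a (167 CPM). Among the blood libraries, replicate 4 was the highest for Ngp (7686 CPM), Tnf (10.5 CPM) and Hilpda (3.01 CPM) and the lowest for Mcl1 (945 CPM). Blood replicate 3 was the highest for Mical1 (203 CPM), and blood replicate 2 for Tnfaip3 (15.6 CPM).

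Summed markers of other cells also set single libraries apart. Red cell markers reached 186 CPM in brain replicate 2. In brain replicate 3, platelet markers reached 18.2 CPM, markers of astrocytes, oligodendrocytes or neurons reached 219 CPM, and endothelial markers were at 0. In blood replicate 3, NK cell markers reached 16.7 CPM and platelet markers 25 CPM.

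The tissue difference itself differed between stroke day 2 and sham for 8 of the listed genes by the interaction test of edgeR. It was more positive after stroke for Cstb (3.54 on the log2 scale), Gadd45b (3.0), Nfkbid (2.48), Cd63 (2.36), Ier3 (1.96) and Ctsb (1.70), and more negative for Camp (-17.25) and Mgam (-8.74). Brain neutrophils of stroke day 2 had no count of Camp or Mgam, so these 2 values depend on the prior count and are no bound. Between day 14 and day 2 it differed for Osm (3.40) and Ctsb (2.07).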

How the results depend on the processing

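Of 59 called named genes, 40 stayed called in every fit without 1 library in which they were tested. Of the 130 higher genes, 118 were tested in all 8 such fits and 62 were called in all 8. Of the 51 lower genes, 41 were tested in all 8 and 14 called in all 8. Of the 59, 48 were kept without a filter and 41 without brain replicates 1 and 2. The number of calls at stroke day 2 (181, with 51 lower) was 119 to 216, with 21 to 66 lower, with 1 library left out, lowest without blood replicate 3. It was 329 (137 lower) with DESeq2, 322 (128 lower) with counts rounded up, 333 (211 higher, 122 lower) with 1 spread for all groups of this age, and 706 (292 higher, 414 lower) without a filter. It was 83 (70 higher, 13 lower) in cells with at least 500 counts, which also left only brain replicates 3 and 4 of the brain libraries, 57 (47 higher, 10 lower) with blood thinned to brain depth, and 130 (23 lower) without brain replicates 1 and 2. Against single blood codes, 79 genes were lower with Neu1, and there were 89 calls (75 higher, 14 lower) with Neu3, 106 (81, 25) with Neu4, 92 (59, 33) with Neu5 and 73 (47, 26) with Neu6. With single brain codes there were 23 (19, 4) for Gran1 and 361 (170 lower) for Gran2. The codes were made from the same cells, so counts by single blood or brain code are descriptions. Calls in sham were 94 to 130, with 17 to 35 lower, the fewest without brain replicate 2, and 189 genes were lower at day 14 when fitted alone. The interaction of day 2 with sham had 24 calls without TMM and 3 to 25 with 1 library left out, and that of day 14 with day 2 had 0 (without brain stroke day 2 replicate 1) to 5. The difference between neutrophils and monocyte-lineage cells had 367 higher and 125 lower calls without TMM, and 99 to 165 higher with 1 library left out. Of the shares, 0 and 0 passed when thinned to 500 counts (9 and 3 cells in brain replicates 1 and 2), and 0 to 36 higher and 0 to 15 lower with 1 library left out (0 of both without any 1 blood library). The cause of these changes was not tested. Leaving out doublets was not run.

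Signs changed for these log2 fold changes. Without TMM, Itgam was 0.01. Without a filter, where the 80 named genes moved by a median of -0.67, Mmp9 was -0.59, Fpr1 -0.40 and Ldha -0.24. Rounded up, Mmp9 was -0.01, Itgam 0.08 and Hif1a 0.03. In cells with at least 500 counts, Fos was 0.40 and Fcgr3 0.38. Against Neu1, Ngp was 1.73, Itgam 0.07 and Hif1a 0.08. Against Neu2, Fpr1 was -0.04, Itgam 0.23, Csf3r 0.17 and Fcgr3 0.01. Against Neu3, Ngp was 0.24, Itgam 0.12 and Mcl1 0.06. Against Neu4, Itgam was 0.13, Csf3r 0.19, Fos 0.19 and Mcl1 0.02. Against Neu5, Ngp was 1.15, Itgam 0.46, Csf3r 0.03, Mcl1 0.27, S100a9 0.01, Isg15 -0.09 and Rsad2 -1.03. Against Neu6, Mmp9 was -0.52, Csf3r 1.10, Fos 0.35, Ldha -0.77, Mcl1 1.01, Fcgr3 0.01, Tsc22d3 0.68 and Clec7a 0.08. With genes at over 10 times the level in another cell type left out, Itgam was 0.01, and with 1 spread for all groups Mmp9 was -0.04. Without Gran3, Itgam was 0.12, and with Gran1 and Gran2 against Neu1 and Neu2, Ngp was 0.04. With Gran1 alone, Lcn2 was 0.12, Mmp8 0.29, Cxcr4 -1.64, Fos 0.44, Slc2a1 -0.32, Tlr4 -0.36, Fcgr3 0.24, S100a8 0.19 and S100a9 0.17. With Gran2 alone, Mmp9 was -0.19, Mcl1 0.04, Fcgr3 0.00 and Fcgr4 0.19. With blood thinned, Itgam was 0.22 and Mcl1 0.06, and without brain replicates 1 and 2, Fos was 0.13 and Fcgr3 0.32. With 1 library left out, Mmp9 ran from -0.18 to 0.33, Fpr1 from -0.29 to 0.49, Itgam from -0.35 to 0.11, Hif1a from -0.26 to 0.18, Ldha from -0.12 to 0.59, Fcgr3 from -0.68 to 0.09 and Tlr4 from -0.06 to 1.35. Of these genes, Isg15, Rsad2, Clec7a and Cxcr4 were called in the main comparison.

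Nothing in the labels pairs brain and blood libraries by number, and not every pair correlated above 0.1. Deviations from the group means correlated at -0.04, 0.13, 0.10 and 0.17 between libraries of equal number, and brain replicates 2, 3 and 4 each correlated best with the blood library of their own number, while replicate 1 did so with blood replicate 2 (0.13). By the recorded ages, read from 1 neutrophil per library, these brain libraries came from mice of 8 weeks and the blood libraries from mice of 9 or 10 weeks. If these records hold for all cells, equal numbers do not stand for the same mice. With the replicate block, 138 genes were called, 104 higher and 34 lower, the calls of Il1b, Junb, Ndufa2, Uqcrq, Casp1 and Klf13 were lost, and Hif1a was 0.07. With the replicate block there were 138 calls in sham, 608 at day 14, 11 for the interaction of day 2 with sham and 2 for that of day 14 with day 2.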

Other observations

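Outside the gene lists, the 5 genes with the largest positive fold changes included a receptor, a lectin and an enzyme of inflammation. Acod1, which makes the metabolite itaconate, stood at 975, 1211, 1981 and 1714 CPM in brain neutrophils and 170, 52.2, 63.8 and 84.4 CPM in blood neutrophils (log2 fold change 3.96 ± 0.41, adjusted p 4.46e-06, edgeR). Monocyte-lineage cells of the brain, the next highest type, held 0.0194 times that level. Clec4n, the lectin receptor dectin-2, stood at 371, 1211, 250 and 241 CPM in brain and 27.3, 26.1, 3.99 and 12.1 CPM in blood (4.54 ± 0.55, adjusted p 2.6e-05). Gpr84, a receptor for medium-chain fatty acids, had 5.04 ± 0.72 (adjusted p 1.34e-04), the transglutaminase gene Tgm2 4.67 ± 0.44 (adjusted p 2.33e-06) and the kinase gene Plk3 4.06 ± 0.44 (adjusted p 7.16e-06). None of the 5 overlapped between tissues. In pooled brain cells, microglia held Gpr84 at 292 CPM against 141 in neutrophils, and monocyte-derived cells held Tgm2 at 460 against 248. Clec4n and Plk3, like Acod1, were highest in neutrophils among the types compared. The part of RNA from other cells was not tested.

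The 5 with the largest negative fold changes were sparse in brain. Cep19, a centrosomal protein gene, stood at 46.4, 41.8, 96.2 and 24.1 CPM in brain and 278, 221, 291 and 294 CPM in blood (log2 fold change -2.42 ± 0.43, adjusted p 0.00125). The other four had 2 or 3 counts in all brain libraries together, and are given as ratios of brain to blood with a 95% counting interval: Abcd2 0.187 (0.0384 to 0.55), Cers6 0.137 (0.0283 to 0.404), Spen 0.122 (0.0148 to 0.444) and Mical1 0.112 (0.0135 to 0.407). The calls of Abcd2 (adjusted p 0.0312) and Spen (adjusted p 0.0182) were lost when some brain libraries were left out: without brain replicate 1, 3 or 4 for Abcd2 (up to 0.0924) and without brain replicate 4 for Spen (0.0764).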
